A study of Arabidopsis thaliana with 18 samples.

Results

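The iron uptake and iron deficiency genes described here are bHLH38, bHLH39, IRT1, IRT2, FRO2, FRO3, FRO4, FRO5, NAS1 and NAS2 of Arabidopsis thaliana. They were taken as the rows of the deposited table whose gene symbol was one of these names, which gave 10 of 25177 genes, and all 10 passed the filter on low counts. RNA was sequenced from root tips of young seedlings in 6 genotypes with 3 libraries each, 18 in all. They were Col-0 wild type (WT), the single mutants nac103-11, gun1-101 and rab8d-2, and the double mutants that join rab8d-2 to gun1-101 (gun1-101 rab8d-2) or to nac103-11 (nac103-11 rab8d-2). All plants grew on diluted Murashige and Skoog plates with sucrose in long days, with no iron treatment named, and their age is 4 days in the sample titles and 3 days in the series design. The rab8d-2 allele lies in RAB8D, the nuclear gene of the plastid translation elongation factor EF-Tu, whose function is deficient in the mutant per the labels. GUN1 acts in plastids and is known for relaying their state to the nucleus, while NAC103 is a stress-related transcription factor. The question of the series is how far the state of the rab8d-2 root depends on GUN1 or on NAC103. The 9 libraries of the 3 genotypes with the rab8d-2 allele are called carriers below. Each carrier genotype was compared with its counterpart without the allele: rab8d-2 with WT (the WT background), gun1-101 rab8d-2 with gun1-101 (the gun1-101 background) and nac103-11 rab8d-2 with nac103-11 (the nac103-11 background). These 3 comparisons share no library.

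Arabidopsis takes up iron by acidifying the soil around the root, reducing ferric iron at the root surface and carrying the ferrous ion into epidermal cells. Under iron deficiency, bHLH38, bHLH39 and their relatives, transcription factors of the basic helix-loop-helix family, pair with the factor FIT and activate the reductase gene FRO2 and the transporter gene IRT1. Nicotianamine, made by the NAS enzymes, chelates iron for movement between cells. FRO4 and FRO5 belong to the same reductase family as FRO2 but are known for reducing copper at the root surface under copper deficiency.

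Total counts were 22625991 to 23090977 per library. RAB8D RNA was at 13.7, 7.52 and 10.1 CPM (counts per 1000000 counts) in rab8d-2 and its double mutants with gun1-101 and nac103-11, against 137, 98.9 and 115 CPM in WT, gun1-101 and nac103-11. RNA of GUN1 and of NAC103 was still detected in their mutants. Among replicates, nac103-11 rab8d-2 replicate 3 and WT replicate 3 were the farthest from their genotypes, with root mean square deviations from the genotype mean of 0.75 and 0.63 log2 units against 0.20 to 0.53 in the other libraries. Replicates 1 and 2 of gun1-101 rab8d-2 were closer to each other (chi-square per degree of freedom 2.14) than any other replicate pair (12.1 to 182) but differed by more than sampling noise, and were kept as 2 samples. No fit merged them, so SDs and p-values count them as 2, except where 1 of them was left out. The labels call the libraries biological replicates without naming separate cultures, so p-values measure the spread between these libraries. Shoot markers, which a root tip should lack, were detected in every library, with summed levels of 10.8 to 1221 CPM and 3 of 10 markers at 0 in WT replicate 1 and in nac103-11 rab8d-2 replicate 2.

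Several of the genes are neighbours. In the RefSeq annotation of TAIR10.1, bHLH38 (AT3G56970, chromosome 3, 21084035 to 21085245, minus strand) lies beside bHLH39 (AT3G56980, chromosome 3, 21086390 to 21087710, minus strand). IRT2 (AT4G19680) and IRT1 (AT4G19690) are adjacent on chromosome 4, and FRO4 (AT5G23980) and FRO5 (AT5G23990) on chromosome 5. The other loci are FRO2 (AT1G01580), FRO3 (AT1G23020), NAS1 (AT5G04950) and NAS2 (AT5G56080). The promoters of the adjacent regulators are shown because both genes fell in the WT background and because basic helix-loop-helix factors bind E-box motifs. The 250 bases upstream of each gene start are given 5′ to 3′ on the gene's strand (minus strand, TAIR10.1), with matches to the E-box CANNTG in capitals.
bHLH38, chr3:21085246-21085495: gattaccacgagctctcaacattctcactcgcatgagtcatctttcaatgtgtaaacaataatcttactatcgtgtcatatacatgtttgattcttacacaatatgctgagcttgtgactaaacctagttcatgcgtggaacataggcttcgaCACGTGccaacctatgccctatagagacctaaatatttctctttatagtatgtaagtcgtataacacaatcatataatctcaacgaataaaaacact
bHLH39, chr3:21087711-21087960: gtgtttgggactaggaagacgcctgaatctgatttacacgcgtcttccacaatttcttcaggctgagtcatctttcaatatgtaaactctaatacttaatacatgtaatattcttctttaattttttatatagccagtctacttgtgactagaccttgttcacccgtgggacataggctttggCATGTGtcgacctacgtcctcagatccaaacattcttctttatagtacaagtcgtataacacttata
The match of bHLH38, 97 bases upstream, has the letters of the G-box CACGTG, which overlaps the E-box motif, and the match of bHLH39 lay 67 bases upstream. In windows of the same length, CACGTG was found upstream of 1 of the 10 genes and 6.87% of 25176 promoters, and CANNTG upstream of 3 of the 10 genes and 55.8% of promoters. Both motifs read the same on either strand. GTAC, the core bound by the copper factor SPL7, also palindromic, was found upstream of 6 of the 10 genes and 34.6% of promoters, and these letters were in the windows of neither FRO4 nor FRO5.

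In every carrier genotype, several of these genes were lower than in the counterpart, and FRO4, FRO5 and IRT2 fell in all 3 comparisons. In the WT background, 5 of the 10 genes fell (bHLH38, bHLH39, IRT2, FRO4 and FRO5) and none rose, where 12.3% of all 21004 genes tested were called, 7.5% lower and 4.8% higher. In the gun1-101 background, 5 fell (bHLH38, IRT2, FRO2, FRO4 and FRO5) and 1 rose (NAS2), where 28.3% of genes were called, 15.7% lower and 12.7% higher. In the nac103-11 background, 7 fell (IRT1, IRT2, FRO2, FRO3, FRO4, FRO5 and NAS1) and none rose, where 29% were called, 14.3% lower and 14.7% higher. In the carriers bHLH38 reached at most 0.238 CPM and IRT1 had a median of 0.0391 CPM. Both thus passed the low-count filter mainly through libraries without the allele, which favours a fall over a rise in these counts. For FRO4, FRO5 and IRT2, all 9 carrier libraries were below all 9 others, as they were for 4.5% of all genes tested. The share of all genes called lower in all 3 comparisons was not counted. Within a background, 15.1%, 31% and 20.4% of all genes tested had every carrier library below every counterpart library in the WT, gun1-101 and nac103-11 backgrounds. Shares of all genes whose libraries separated upward, or in comparisons other than these, are not given. The median log2 fold changes of the 10 genes were -2.70, -1.92 and -2.61 in these backgrounds, and those of all genes tested were 0.01, 0.05 and 0.09. Calls are at an adjusted p below 0.05 in edgeR's quasi-likelihood test with Benjamini-Hochberg adjustment over all genes tested, with 1 estimate of the spread from all 18 libraries. With the 6 libraries of WT and rab8d-2 fitted alone, none of the 10 genes passed (adjusted p from 0.0684 for bHLH39 to 0.109 for IRT2 among the 5 that had been called).

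**Figure D1:**
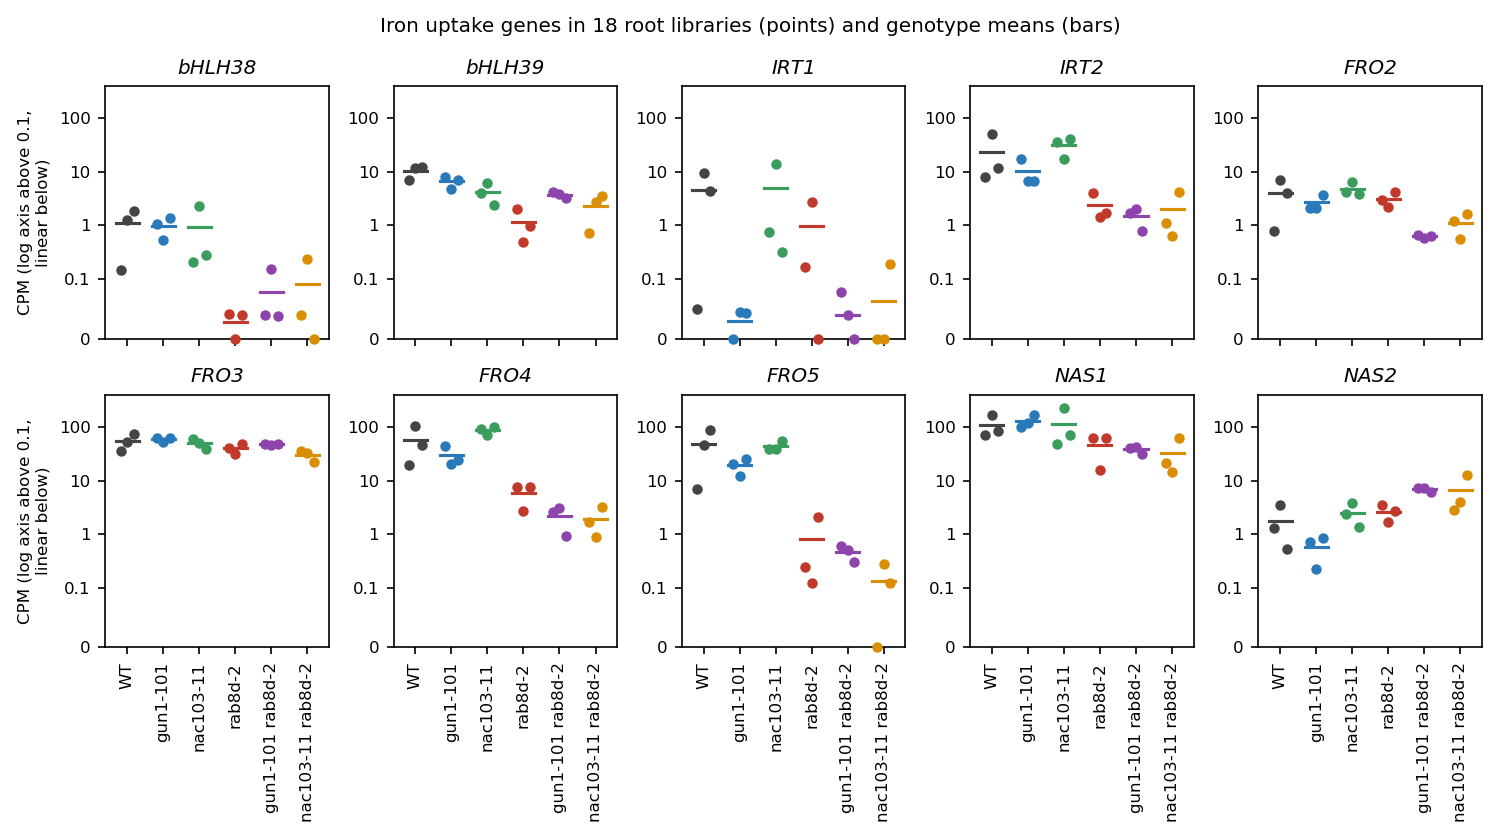
TMM-scaled CPM of the 10 iron genes in each of 18 libraries, by genotype, on an axis that is logarithmic above 0.1 and linear below; points are libraries and bars genotype means (n = 3). For FRO4, FRO5 and IRT2 the 9 rab8d-2 carrier libraries all lie below the 9 other libraries, and for NAS2 gun1-101 rab8d-2 lies above gun1-101.

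The copper-type reductase genes FRO4 and FRO5 fell in all 3 backgrounds. FRO4 was at 19.8, 103 and 46.0 CPM in the 3 WT libraries, 44.9, 20.0 and 24.5 in gun1-101, and 90.3, 72.2 and 102 in nac103-11. Its carrier libraries were at 7.47, 2.65 and 7.61 CPM in rab8d-2, 2.55, 3.13 and 0.905 in gun1-101 rab8d-2, and 1.70, 0.873 and 3.25 in nac103-11 rab8d-2. No carrier library reached the lowest of the others, while WT spanned the range of gun1-101. The order of mean levels was nac103-11, WT, gun1-101, rab8d-2 and then the double mutants with gun1-101 and with nac103-11, and of the neighbours in this order gun1-101 and rab8d-2 alone did not overlap. The log2 fold change was -3.25 ± 0.64 (SE) in the WT background (edgeR adjusted p = 0.00791), -3.76 ± 0.66 in the gun1-101 background (0.00103) and -5.54 ± 0.72 in the nac103-11 background (0.000187).

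FRO5 was at 7.02, 45.2 and 88.8 CPM in WT, 20.0, 12.3 and 25.3 in gun1-101, and 39.6, 39.2 and 53.5 in nac103-11. In the carriers it was at 0.249, 0.121 and 2.07 CPM in rab8d-2, 0.588, 0.509 and 0.302 in gun1-101 rab8d-2, and 0, 0.278 and 0.125 in nac103-11 rab8d-2. The carriers were again all below the other libraries, and nac103-11 rab8d-2 was below gun1-101 rab8d-2 with no overlap, a difference that did not pass the test (log2 fold change 1.74 ± 1.29 for gun1-101 rab8d-2 over nac103-11 rab8d-2, edgeR adjusted p = 0.415). Carrier counts summed to 60, 36 and 9 reads over 3 libraries in the 3 genotypes, so the fold changes rest on low counts. They were -5.85 ± 0.97 in the WT background (edgeR adjusted p = 0.00337), -5.35 ± 0.98 in the gun1-101 background (0.00133) and -8.29 ± 1.17 in the nac103-11 background (0.000319). Estimated counts of FRO4 and of FRO5 were not whole in 17 of 18 libraries each, as RSEM gives where reads match more than 1 sequence, so the split between the pair is uncertain. With both genes summed, an alternative chosen after seeing the data, the log2 fold changes were -3.94, -4.20 and -6.02 in the same order, with edgeR adjusted p-values of 0.00314, 0.000494 and 0.000115. FRO4 and FRO5 were called with each library left out in turn in all 3 comparisons, with a highest edgeR adjusted p of 0.0486 for FRO4 in the WT background.

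The metal transporter genes fell in different comparisons. IRT2, a close relative of the main iron importer IRT1, was at 7.96, 49.9 and 11.6 CPM in WT, 17.6, 6.90 and 6.76 in gun1-101, and 35.9, 17.6 and 41.8 in nac103-11. Its carrier values were 4.02, 1.45 and 1.70 CPM in rab8d-2, 1.69, 1.99 and 0.792 in gun1-101 rab8d-2, and 1.11, 0.635 and 4.25 in nac103-11 rab8d-2. The carriers did not overlap the other libraries, but the gap was small, since the highest carrier was at 4.25 CPM and the lowest other library at 6.76. The log2 fold changes were -3.27 ± 0.80 (edgeR adjusted p = 0.0199), -2.80 ± 0.80 (0.0178) and -4.04 ± 0.83 (0.00303) in the WT background, the gun1-101 background and the nac103-11 background. The first call was lost without WT replicate 2 (-2.03, edgeR adjusted p = 0.110), rab8d-2 replicate 2 (-3.01, 0.109) or rab8d-2 replicate 3 (-3.08, 0.0516). The second was lost without gun1-101 replicate 1 (-2.19, edgeR adjusted p = 0.0755), gun1-101 rab8d-2 replicate 1 (-2.90, 0.0534) or gun1-101 rab8d-2 replicate 3 (-2.50, 0.0686), and the third was kept with each library left out in turn.

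IRT1, the main importer of ferrous iron in the root epidermis, was low and varied widely between replicates. Its values were 0.0498, 9.43 and 4.43 CPM in WT, 0.757, 14.1 and 0.325 in nac103-11, and 0, 0.0448 and 0.0439 in gun1-101. In the carriers they were 0.166, 2.73 and 0 CPM in rab8d-2, 0.0784, 0.0391 and 0 in gun1-101 rab8d-2, and 0, 0 and 0.188 in nac103-11 rab8d-2. The libraries of WT and of nac103-11 overlapped those of rab8d-2, and gun1-101 lay in the range of nac103-11 rab8d-2. Counts in nac103-11 were 330 against 3 in nac103-11 rab8d-2, a ratio of 109 (95% counting interval 37.1 to 533) that passed edgeR's test (adjusted p = 0.0313). That call was lost without nac103-11 replicate 2, which held most of those reads (edgeR adjusted p = 0.271), and without nac103-11 rab8d-2 replicate 1 (0.0952) or replicate 2 (0.0922). In the WT background the log2 fold change was -2.25 ± 1.51 (edgeR adjusted p = 0.326). The gun1-101 libraries held 2 reads and the WT libraries 278, a ratio of 153 (42.0 to 1272) that did not pass the test across replicates (edgeR adjusted p = 0.673). Counting intervals cover counting error only.

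The regulators bHLH38 and bHLH39 both fell in the WT background, and bHLH38 was called in the gun1-101 background where bHLH39 was not, a difference between the genes that was not tested. bHLH39 was at 7.02, 11.8 and 12.3 CPM in WT and at 2.03, 0.482 and 0.972 in rab8d-2, with no overlap. The log2 fold change was -3.15 ± 0.57 (edgeR adjusted p = 0.00550), and it was called with each library left out in turn. In the other backgrounds bHLH39 was at 8.05, 4.79 and 7.11 CPM in gun1-101 and 4.24, 3.79 and 3.21 in gun1-101 rab8d-2, and at 3.99, 6.21 and 2.36 in nac103-11 and 0.712, 2.74 and 3.50 in nac103-11 rab8d-2. These 2 comparisons did not pass, with log2 fold changes of -0.83 ± 0.52 (edgeR adjusted p = 0.246) and -0.87 ± 0.54 (0.239). The difference between the rab8d-2 effect in gun1-101 and that in WT was 2.32 ± 0.75 on the log2 scale (edgeR adjusted p = 0.245), and with nac103-11 it was 2.28 ± 0.76 (0.214), so neither passed. bHLH39 was 1.69 ± 0.55 log2 units higher in gun1-101 rab8d-2 than in rab8d-2, with no overlap of libraries and an edgeR adjusted p of 0.0987.

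bHLH38 was at 0.149, 1.29 and 1.87 CPM in WT, 1.05, 0.538 and 1.36 in gun1-101, and 0.210, 2.27 and 0.278 in nac103-11. Its carrier values were 0.0415, 0 and 0.0405 CPM in rab8d-2, 0.0392, 0.156 and 0.0377 in gun1-101 rab8d-2, and 0.0396, 0.238 and 0 in nac103-11 rab8d-2. The gene was near the detection limit in every carrier library and above 1 CPM in 5 of the other 9 libraries. WT held 70 reads and rab8d-2 2 reads, a ratio of 41.8 (95% counting interval 11.2 to 352), which passed the test (edgeR adjusted p = 0.0252) but not without WT replicate 2 (0.0681), rab8d-2 replicate 2 (0.125) or rab8d-2 replicate 3 (0.0517). In the gun1-101 background the log2 fold change was -3.58 ± 1.15 (edgeR adjusted p = 0.0308), a call lost with each of the 6 libraries left out except gun1-101 replicate 2 (0.0506 to 0.103). In the nac103-11 background it was -3.11 ± 1.13 (edgeR adjusted p = 0.0510) and was not called. bHLH38 had estimated counts that were not whole in 11 libraries, so its level is uncertain in the same way, while all counts of bHLH39 were whole.

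**Figure D2:**
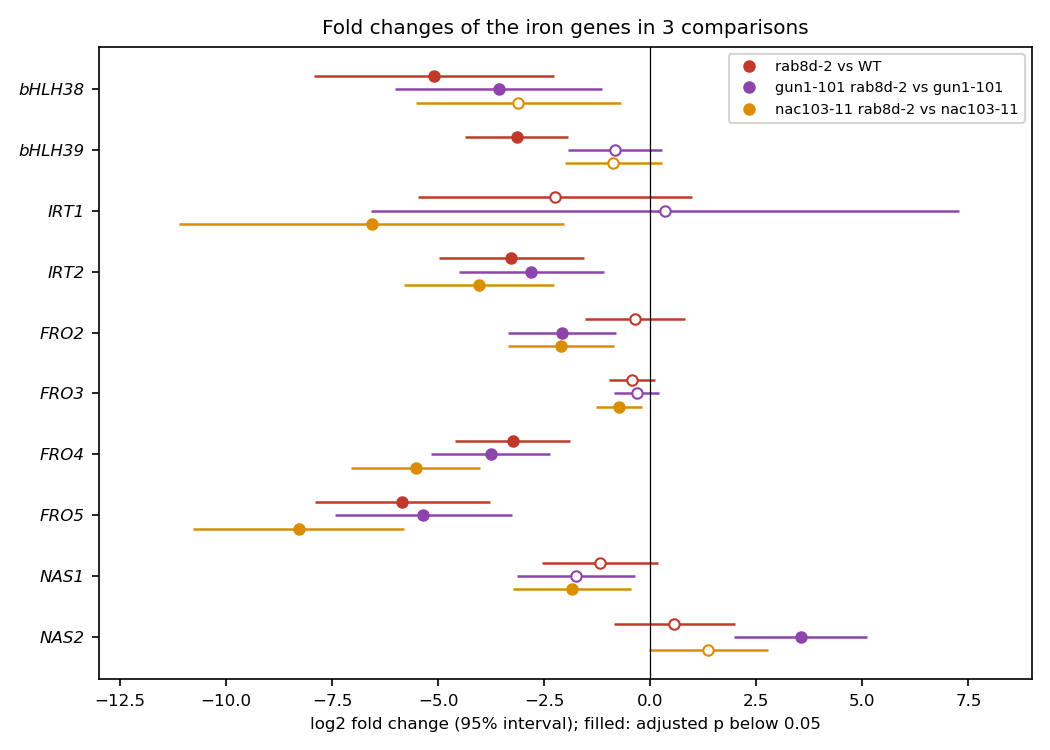
Log2 fold changes of the 10 iron genes with 95% intervals in the WT, gun1-101 and nac103-11 backgrounds (carrier against counterpart); filled points have an adjusted p below 0.05 in edgeR's quasi-likelihood test. FRO4, FRO5 and IRT2 are filled to the left of 0 in all 3 comparisons, and NAS2 is the 1 gene filled to the right, at 3.54 in the gun1-101 background.

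FRO2, the ferric reductase of the root surface, fell in the gun1-101 and nac103-11 backgrounds and was not called in the WT background. It was at 0.796, 7.16 and 4.04 CPM in WT and 2.99, 2.17 and 4.21 in rab8d-2, which lay inside the WT range, with a log2 fold change of -0.35 ± 0.55 (edgeR adjusted p = 0.685) that turned to 0.37 without WT replicate 2. In gun1-101 it was at 2.14, 2.15 and 3.77 CPM and in gun1-101 rab8d-2 at 0.667, 0.587 and 0.641. In nac103-11 it was at 4.29, 6.35 and 3.85 CPM and in nac103-11 rab8d-2 at 1.23, 0.555 and 1.63. Neither pair overlapped, and both comparisons passed, with log2 fold changes of -2.08 ± 0.60 (edgeR adjusted p = 0.0190) and -2.10 ± 0.59 (0.0156). The first was lost without gun1-101 replicate 3 (-1.76, edgeR adjusted p = 0.0735) or without each gun1-101 rab8d-2 library in turn (-2.12 to -2.03, 0.0537 to 0.0640), and the second without nac103-11 replicate 2 (-1.85, 0.0573) or nac103-11 rab8d-2 replicate 2 (-1.76, 0.0582). The rab8d-2 effect on FRO2 differed from that in WT by -1.73 ± 0.81 in gun1-101 (edgeR adjusted p = 0.497). In nac103-11 it differed by -1.75 ± 0.80 (edgeR adjusted p = 0.304), so neither difference passed.

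FRO3, a reductase of mitochondria, had the smallest fold change of the genes called among the 10. Its range was 35.0 to 72.9 CPM in the 9 libraries without rab8d-2 and 21.8 to 48.7 CPM in the carriers, and the groups overlapped. It was at 60.7, 50.8 and 39.5 CPM in nac103-11 and 35.8, 32.5 and 21.8 in nac103-11 rab8d-2, with no overlap. That comparison passed, with a log2 fold change of -0.74 ± 0.25 (edgeR adjusted p = 0.0395), and was lost without nac103-11 replicate 1 (-0.59, 0.138) or 2 (-0.73, 0.0935), or nac103-11 rab8d-2 replicate 2 (-0.80, 0.0612) or 3 (-0.57, 0.120). The other comparisons gave -0.43 ± 0.25 in the WT background (edgeR adjusted p = 0.268) and -0.32 ± 0.25 in the gun1-101 background (0.353).

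Of the nicotianamine synthase genes, NAS1 fell in the nac103-11 background and NAS2 rose in the gun1-101 background. NAS1 was at 69.6, 169 and 83.2 CPM in WT, 99.1, 120 and 169 in gun1-101, and 48.9, 227 and 69.9 in nac103-11. In the carriers it was at 63.2, 15.8 and 61.1 CPM in rab8d-2, 40.2, 42.3 and 31.9 in gun1-101 rab8d-2, and 20.8, 14.2 and 61.5 in nac103-11 rab8d-2. Its log2 fold changes were -1.20 ± 0.64 (edgeR adjusted p = 0.220), -1.76 ± 0.65 (0.0552) and -1.85 ± 0.65 (0.0458) in the WT, gun1-101 and nac103-11 backgrounds, and the last was called although nac103-11 and nac103-11 rab8d-2 overlapped. That call was lost without nac103-11 replicate 2 (-0.88, edgeR adjusted p = 0.329) or 3 (-2.10, 0.0510), or nac103-11 rab8d-2 replicate 1 (-1.61, 0.136) or 2 (-1.49, 0.140).

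NAS2 was at 0.700, 0.224 and 0.834 CPM in gun1-101 and 7.29, 7.35 and 6.03 in gun1-101 rab8d-2, so that every library of the double mutant was above every gun1-101 library. The log2 fold change was 3.54 ± 0.74 (edgeR adjusted p = 0.00301), and it was called with each library left out in turn. In this background 12.7% of all genes tested were called higher, and the share whose libraries separated upward is not given. In WT it was at 1.29, 3.55 and 0.522 CPM and in rab8d-2 at 3.57, 1.65 and 2.67, which overlapped (0.57 ± 0.67, edgeR adjusted p = 0.584). In nac103-11 it was at 2.40, 3.85 and 1.34 CPM and in nac103-11 rab8d-2 at 2.81, 4.05 and 12.9 (1.37 ± 0.66, edgeR adjusted p = 0.132). The rab8d-2 effect on NAS2 was 2.98 ± 0.98 log2 units greater in gun1-101 than in WT, which did not pass (edgeR adjusted p = 0.250). With the libraries most distant from their genotypes, the third replicates of WT and of nac103-11 rab8d-2, left out, this difference was 3.32 (edgeR adjusted p = 0.0316), and NAS2 was 1.94 log2 units lower in gun1-101 than in WT (0.0327). The difference of the rab8d-2 effect was called under this alternative only, 1 of 19, and in 0 of 12 fits without a single library.

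Without rab8d-2, none of the 10 genes passed the test in either single mutant. In gun1-101 against WT 0 of 10 were called by edgeR and 0 by DESeq2, with 2 at an unadjusted p below 0.05, where 0.019% of all genes were called. In nac103-11 against WT 0 were called by either tool and 1 had an unadjusted p below 0.05, where 0.00952% of all genes were called. The lowest fold change in nac103-11 was that of bHLH39 (-1.30 ± 0.53, edgeR adjusted p = 0.746), whose libraries did not overlap those of WT.

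Among the rab8d-2 carriers, gun1-101 rab8d-2 differed from rab8d-2 in FRO2, which was lower by a log2 fold change of -2.30 ± 0.60 (edgeR adjusted p = 0.0449), where 4.18% of all genes were called. This call was lost with the removal of rab8d-2 replicate 1 (-2.33, edgeR adjusted p = 0.0930), rab8d-2 replicate 3 (-2.02, 0.122) or gun1-101 rab8d-2 replicate 1 (-2.34, 0.143), 2 (-2.25, 0.159) or 3 (-2.31, 0.114). In nac103-11 rab8d-2 against rab8d-2, 0 of 10 genes were called by edgeR or DESeq2 and 2 had an unadjusted p below 0.05, where 2.54% of all genes were called. FRO2 was at -1.47 ± 0.58 (edgeR adjusted p = 0.156) and FRO4 at -1.64 ± 0.64 (0.152). Between the double mutants 0 of the 10 genes were called by edgeR or DESeq2, with 1 at an unadjusted p below 0.05, where 4.93% of all genes were called. Differences of the rab8d-2 effect between backgrounds were called for 0 of 10 genes by either tool, with 3 at an unadjusted p below 0.05 for gun1-101 and 3 for nac103-11, where 0.195% and 0.00952% of all genes were called. The comparisons with rab8d-2 as the reference share its libraries with rab8d-2 against WT.

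Levels of different genes were compared in TPM, the authors' transcript abundance scaled by gene length and library. In WT, NAS1 was highest at 66.9 ± 27.3 TPM (SD, n = 3), above the range of the next gene. FRO5 (20.9 ± 20.0 TPM), FRO4 (20.7 ± 13.8), FRO3 (20.5 ± 8.98) and IRT2 (15.0 ± 13.8) followed with overlapping libraries. Then came bHLH39 at 7.71 ± 2.52 TPM, IRT1 at 2.84 ± 2.59, FRO2 at 1.32 ± 0.97, NAS2 at 1.16 ± 0.94 and bHLH38 at 0.96 ± 0.81, each overlapping its neighbour. The best known genes of root iron uptake, IRT1 and FRO2, were thus among the lower ones in these root tips, and FRO4 and FRO5 had higher mean TPM. In gun1-101 rab8d-2 the order was NAS1 (31.1 ± 3.89 TPM), FRO3 (22.2 ± 0.78), NAS2 (6.06 ± 0.53) and bHLH39 (3.53 ± 0.43), with no overlap between these neighbours, and FRO5 was at 0.27 ± 0.09 TPM.

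Counting both directions, other genes of iron homeostasis were called about as often as all genes, but all their calls in the WT background were lower. Of a list of 56 such genes without the 10 above, 48 were tested. In the WT background 7 fell and 0 rose (median log2 fold change -0.52), in the gun1-101 background 10 fell and 7 rose (-0.34), and in the nac103-11 background 8 fell and 8 rose (-0.32). These 7, 17 and 16 calls stand beside 12.3%, 28.3% and 29% of all genes called in either direction. By direction, 7.5%, 15.7% and 14.3% of all genes were called lower and 4.8%, 12.7% and 14.7% higher. With the libraries of a comparison fitted alone, the counts called were 0, 32 and 10, and without the 2 most distant libraries 15 fell and 4 rose in the WT background. Genes that fell in all 3 comparisons were 4 of the 48: the proton pump gene AHA7, the metal transporter genes MTP3 and IREG3, and VTL2, a relative of vacuolar iron transporters. Genes that rose in both double mutants against their counterparts were 5: the ferritin genes FER1 and FER3, the vacuolar metal exporter gene NRAMP3, the nicotianamine-metal transporter gene YSL1 and the reductase gene FRO8. YSL1 and FRO8 had few reads, most of them in carriers, so passing the low-count filter favoured a rise for these genes. The shares of all genes tested that fell in all 3 comparisons or rose in both double mutants were not counted. By role, 0 of 4 storage genes fell and 2 or 3 rose in the gun1-101 and nac103-11 backgrounds, and 0 were called in the WT background. Of 11 metal transporter genes 4 or 5 fell and 1 or 2 rose in the gun1-101 and nac103-11 backgrounds. In the WT background 4 of them fell and 0 rose. These counts are small and were not tested against the shares of all genes. Of 16 regulators 1, 3 and 2 fell in the WT, gun1-101 and nac103-11 backgrounds, and 1 rose, in the gun1-101 background.

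**Figure D3:**
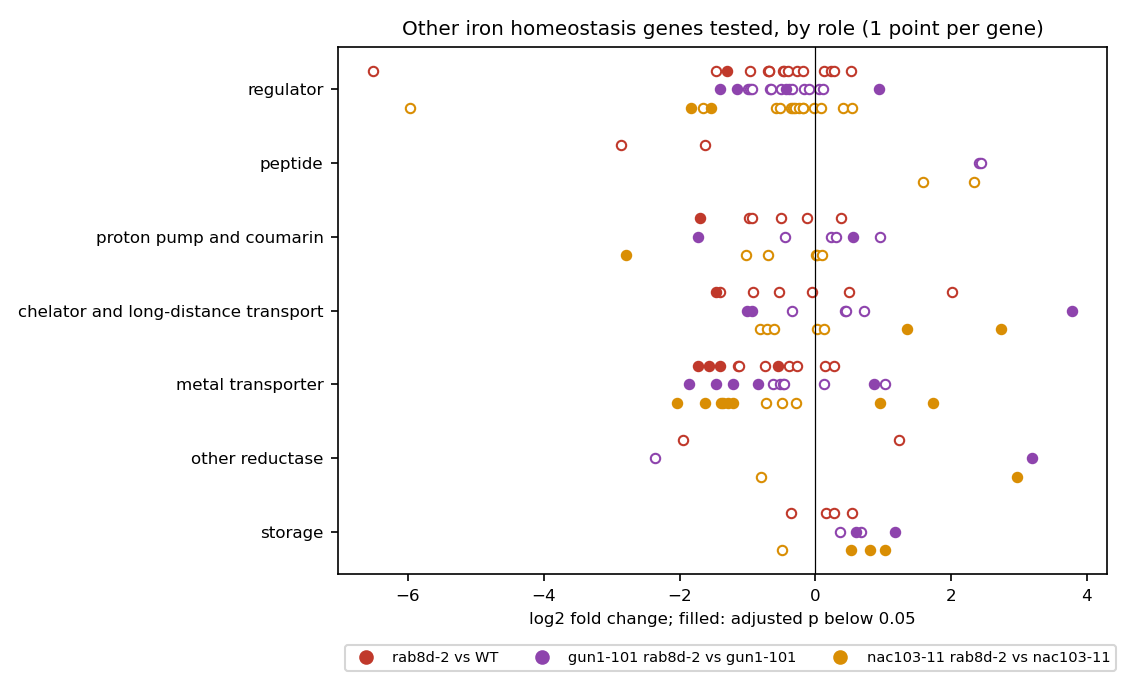
Log2 fold changes of the 48 other iron homeostasis genes tested, by role, in the WT, gun1-101 and nac103-11 backgrounds (carrier against counterpart); each point is a gene, and filled points have an adjusted p below 0.05 in edgeR's quasi-likelihood test. All called storage genes lie to the right of 0, and metal transporters lie on both sides.

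Among the regulators on the list, FIT, the partner of bHLH38 and bHLH39, was at 31.5 ± 7.3 CPM (SD, n = 3) in WT and 12.8 ± 5.8 in rab8d-2 (log2 fold change -1.30 ± 0.32, edgeR adjusted p = 0.0189), a call lost without WT replicate 2 (-1.20, 0.0685) or rab8d-2 replicate 2 (-1.01, 0.0879). It was at 38.0 ± 3.4 CPM in nac103-11 and 13.1 ± 2.3 in nac103-11 rab8d-2 (-1.53 ± 0.32, edgeR adjusted p = 0.00304), and this was kept with each library left out in turn. In the gun1-101 background FIT did not pass (-0.67 ± 0.31, edgeR adjusted p = 0.118). PYE, a repressor of the deficiency response in the stele, and BTS, a ubiquitin ligase that limits the response, were not called in any of the 3 comparisons, with fold changes from -0.34 ± 0.25 to 0.54 ± 0.25 for PYE and from -0.18 ± 0.20 to 0.08 ± 0.20 for BTS. AT1G74770, a zinc ion binding protein in RefSeq, fell in the nac103-11 background (-1.83 ± 0.35, edgeR adjusted p = 0.00200) and in the gun1-101 background (-1.15 ± 0.35, 0.0230), the latter lost without gun1-101 replicate 3 or without each gun1-101 rab8d-2 library in turn (0.0533 to 0.0834). In the gun1-101 background, the kinase gene CIPK11 fell (-1.40 ± 0.38, edgeR adjusted p = 0.0135), a call lost without gun1-101 rab8d-2 replicate 3 (0.0568). There bHLH104, a factor upstream of bHLH38 and bHLH39, fell by 0.43 ± 0.15 (edgeR adjusted p = 0.0433), lost without gun1-101 replicate 2 or 3 or gun1-101 rab8d-2 replicate 1 or 2 (0.105 to 0.180) and with the replicate block (0.0572). AT1G18910 rose there (0.93 ± 0.32, edgeR adjusted p = 0.0404), lost with each library left out except gun1-101 rab8d-2 replicate 3 (0.0797 to 0.108) and with the replicate block (0.0631). The other relatives of the regulators, bHLH100 and bHLH101, named after their values were seen, were not called, and bHLH100 had 30 reads in WT and 0 in rab8d-2, which allows up to 3.

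For the pump and the metal transporters, AHA7 fell by 1.70 ± 0.41 on the log2 scale in the WT background (edgeR adjusted p = 0.0179), by 1.74 ± 0.41 in the gun1-101 background (0.00614) and by 2.79 ± 0.42 in the nac103-11 background (0.000459). The first call was lost without WT replicate 2 (0.0888) or rab8d-2 replicate 2 (0.105). MTP3, a vacuolar zinc transporter, was at 23.9 ± 8.1 CPM (SD, n = 3) in WT and 7.20 ± 0.81 in rab8d-2, and its fold changes of -1.73 ± 0.28, -1.46 ± 0.28 and -1.62 ± 0.29 (edgeR adjusted p = 0.00316, 0.00188 and 0.00120) were all kept with each library left out in turn. MTP3 and AHA7 thus fell in all 3 backgrounds, as did both of the next genes. IREG3, a plastid member of the ferroportin family, was at -0.55 ± 0.15, -1.21 ± 0.16 and -1.21 ± 0.16 (edgeR adjusted p = 0.0335, 0.000125 and 0.000176), the first lost without WT replicate 2 or rab8d-2 replicate 1 or 2 (0.0531 to 0.166). VTL2 was at -1.40 ± 0.43, -1.86 ± 0.44 and -2.04 ± 0.44 (edgeR adjusted p = 0.0448, 0.00659 and 0.00393), the first lost without WT replicate 1 or 2 or rab8d-2 replicate 1 or 2 (0.0797 to 0.208). VTL5 fell in the WT background (-1.57 ± 0.40, edgeR adjusted p = 0.0240) and the nac103-11 background (-1.29 ± 0.40, 0.0256). Its first call was lost without WT replicate 2 (0.113) or rab8d-2 replicate 2 (0.0911), and its second without nac103-11 replicate 2 or 3 or nac103-11 rab8d-2 replicate 1 (0.0500 to 0.0940). VTL1 rose in the nac103-11 background (1.73 ± 0.49, edgeR adjusted p = 0.0173), lost without nac103-11 replicate 1 or 3 (1.48 and 1.67, 0.0676 and 0.0596) or nac103-11 rab8d-2 replicate 3 (0.92, 0.0988).

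For storage and distribution, FER1 was at 176 ± 28 CPM (SD, n = 3) in nac103-11 and 307 ± 58 in nac103-11 rab8d-2 (log2 fold change 0.80 ± 0.20, edgeR adjusted p = 0.00835), kept with each library left out in turn. In the gun1-101 background it was at 0.60 ± 0.20 (edgeR adjusted p = 0.0354), lost with each of the 6 libraries left out (0.0643 to 0.0911), and in the WT background at 0.27 ± 0.20 (0.364). FER3 rose in both double mutants (1.17 ± 0.32 and 1.03 ± 0.32, edgeR adjusted p = 0.0147 and 0.0256). Its first call was lost without gun1-101 replicate 3 (0.0540) or gun1-101 rab8d-2 replicate 2 (0.0517), and its second with each nac103-11 library left out and without nac103-11 rab8d-2 replicate 3 (0.62 to 1.05, 0.0658 to 0.109). FER4 rose with nac103-11 (0.53 ± 0.15, edgeR adjusted p = 0.0150), lost without nac103-11 replicate 1 (0.0575). NRAMP3 rose in both (0.86 ± 0.17 and 0.96 ± 0.18, edgeR adjusted p = 0.00253 and 0.00145), kept with each library left out in turn, as was ZIF1, a vacuolar nicotianamine transporter, in nac103-11 rab8d-2 (1.36 ± 0.25, 0.00156).

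Among the remaining genes of long-distance transport, coumarin release and other reductases, directions were mixed. OPT3, a phloem iron transporter, fell in the WT background (-1.46 ± 0.34, edgeR adjusted p = 0.0153), lost without rab8d-2 replicate 2 (0.0864), and in the gun1-101 background (-1.01 ± 0.33, 0.0349), lost with each library left out except gun1-101 rab8d-2 replicate 1 (0.0600 to 0.129) and with the replicate block (0.0530). YSL2, of the same family as YSL1, fell in the gun1-101 background (-0.94 ± 0.28, edgeR adjusted p = 0.0210), and BGLU42, a glucosidase of coumarin release, rose there (0.56 ± 0.15, 0.0146). The YSL2 call was lost without gun1-101 replicate 1 or 2 or gun1-101 rab8d-2 replicate 1 or 2 (0.0573 to 0.0751), and the BGLU42 call without gun1-101 replicate 1 or 3 or gun1-101 rab8d-2 replicate 1 or 2 (0.0516 to 0.0704). YSL1 and FRO8 were near the detection limit, with 214 and 170 reads over all 18 libraries. They passed the low-count filter mainly through carrier libraries, which favours a rise over a fall in these counts. YSL1 had 5 reads in gun1-101 and 84 in gun1-101 rab8d-2 (edgeR adjusted p = 0.0114), and 7 in nac103-11 and 47 in nac103-11 rab8d-2 (0.0438), the latter lost with each library left out except nac103-11 replicate 2 (0.0604 to 0.133). FRO8 had 8 and 87 reads in the first pair (edgeR adjusted p = 0.00644) and 2 and 18 in the second (0.0362), the latter lost with each library left out except nac103-11 rab8d-2 replicate 2 (0.0562 to 0.112).

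Since FRO4 and FRO5 are copper-type reductases, 10 copper genes were set beside them. In the WT background 1 fell, in the gun1-101 background 4 fell, and in the nac103-11 background 3 fell and 1 rose. Of all genes 12.3%, 28.3% and 29% were called in either direction, and 7.5%, 15.7% and 14.3% were called lower. In the nac103-11 background 14.7% were called higher. With only 10 genes, 1 that fell in the WT background is near the share called lower. COPT2, a copper importer of the root surface, fell in all 3. It was at 73.0 ± 44 CPM (SD, n = 3) in WT and 12.1 ± 6.9 in rab8d-2, 52.1 ± 11 in gun1-101 and 4.45 ± 1.3 in gun1-101 rab8d-2, and 69.7 ± 18 in nac103-11 and 3.61 ± 2.6 in nac103-11 rab8d-2. The log2 fold changes were -2.60 ± 0.55, -3.55 ± 0.58 and -4.30 ± 0.61 (edgeR adjusted p = 0.0116, 0.000658 and 0.000318), the first lost without WT replicate 2 (0.0538) or rab8d-2 replicate 2 (0.0562). SPL7, the copper deficiency regulator, was at -0.16 ± 0.19 (edgeR adjusted p = 0.602), -0.65 ± 0.19 (0.0217) and -0.72 ± 0.19 (0.0129), the second lost with each library left out except gun1-101 rab8d-2 replicate 2 (0.0518 to 0.0694). COPT1 rose in the nac103-11 background (1.76 ± 0.34, edgeR adjusted p = 0.00202). COPT6 (-1.65 ± 0.57, edgeR adjusted p = 0.0422) and the copper chaperone gene CCH (-1.32 ± 0.44, 0.0354) fell in the gun1-101 background, and ZIP2 (-1.25 ± 0.42, 0.0386) in the nac103-11 background. Those 3 calls were lost with each library left out except gun1-101 rab8d-2 replicate 3 (COPT6, 0.0771 to 0.149), with each library left out (CCH, 0.0691 to 0.0964), and without nac103-11 replicate 2 or 3 or nac103-11 rab8d-2 replicate 1 or 2 (ZIP2, 0.0795 to 0.143).

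FRO2 and IRT1, though not all of the 10 genes, are known for iron uptake at the root epidermis. Markers of root hairs fell in the carriers, and so did markers of endodermis and xylem. Of 10 root hair markers, 8 fell in the WT background, 8 in the gun1-101 background and 9 in the nac103-11 background, with median log2 fold changes of -2.09, -2.49 and -3.12, where 7.5%, 15.7% and 14.3% of all genes were called lower. Their summed level was 325 to 1187 CPM in WT, 295 to 480 in gun1-101 and 815 to 1190 in nac103-11, against 80.0 to 189 in rab8d-2, 56.6 to 100.1 in gun1-101 rab8d-2 and 62.4 to 158 in nac103-11 rab8d-2, and no marker was at 0 in any library. WT replicate 1 was the lowest WT library for these markers, as it was for all of the 10 iron genes except NAS2. Of 10 endodermis markers 7, 5 and 7 fell in the same order, and of 9 xylem markers 7, 8 and 8. Of 5 root cap markers 0 were called in the WT background by edgeR, and 1 fell and 1 rose in each of the other backgrounds. Their mean log2 CPM was lower without overlap in those backgrounds, at 3.13 to 3.57 in gun1-101 against 2.79 to 2.94 in gun1-101 rab8d-2, and at 3.42 to 3.79 in nac103-11 against 2.52 to 3.19 in nac103-11 rab8d-2. The summed level of the root cap markers overlapped in both, at 61.2 to 70.7 CPM in gun1-101 against 65.2 to 80.5 in gun1-101 rab8d-2. In nac103-11 this sum was 58.9 to 72.7 CPM, against 56.0 to 60.1 in nac103-11 rab8d-2. Of the 10 shoot markers 0, 2 and 1 were called lower, with median log2 fold changes of -1.02, -1.74 and -2.39. Their summed level was 293 to 1221 CPM in WT and 114 to 1143 in rab8d-2, 380 to 481 in gun1-101 and 67.8 to 208 in gun1-101 rab8d-2, and 116 to 610 in nac103-11 and 10.8 to 255 in nac103-11 rab8d-2. The gun1-101 pair alone did not overlap in this sum. The part of these cell types in the changes of the iron genes was not tested, and in bulk tissue fewer cells of a type and less RNA per cell cannot be told apart.

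**Figure D4:**
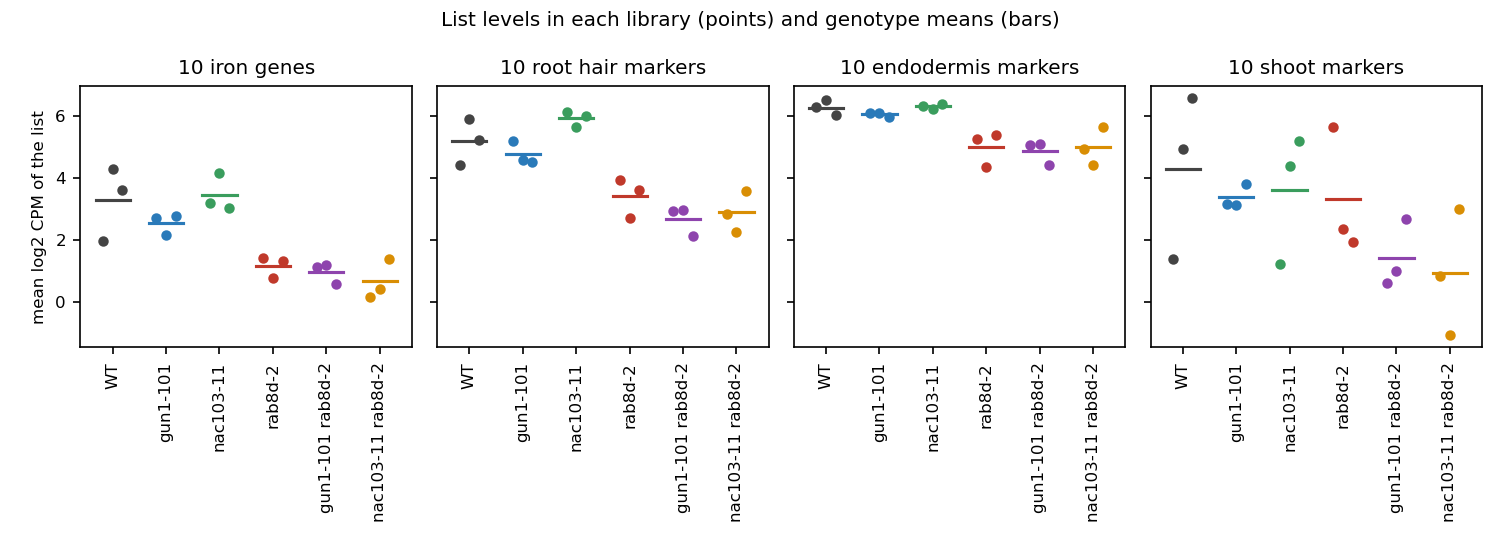
Mean log2 CPM of the 10 iron genes, 10 root hair, 10 endodermis and 10 shoot markers in each library, by genotype; points are libraries and bars genotype means (n = 3). The genotype means of all 4 sets are lower in each rab8d-2 carrier genotype than in its genotype without the allele, and shoot markers overlap in the WT and nac103-11 backgrounds but not in the gun1-101 background.

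The genes most like 2 members in pattern were found by the root mean square difference of centred log2 CPM over the 18 libraries, among 19266 genes with a mean of at least 1 CPM. For bHLH39, whose own SD was 1.21 log2 units, they were ALDH2B7 (0.60), AAP4 (0.63), AT5G07475 (0.66), AT5G47635 (0.68) and DTX35 (0.69). ALDH2B7 was at 55.3 CPM in WT, 14.6 in rab8d-2, 35.8 in gun1-101 rab8d-2 and 21.8 in nac103-11 rab8d-2. For IRT1, with an SD of 2.45, the nearest were AT5G59680 (1.81), AGC1.7 (1.81), PPa3 (1.82), AT5G06630 (1.83) and AT1G17030 (1.85).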

How the data were processed

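RNA from Arabidopsis root tips was sequenced in 18 libraries, 3 from each of 6 genotypes. The authors deposited expected counts per gene, made with RSEM 1.3.1 on TAIR10 per the submitters' processing notes, and TPM values, which summed to 67.1% to 79.5% of 1000000 per library. The table held 25177 genes. Of the expected counts, 19.6% differed from a whole number (tolerance 1e-06), and all were rounded before testing.

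The filter filterByExpr of edgeR 4.0.16 (R 4.3.3) removed 4173 genes and left 21004. A robust quasi-likelihood fit used all 18 libraries with their genotypes as groups, after TMM scaling with factors from 0.706 to 1.17. Calls needed an adjusted p (Benjamini-Hochberg) below 0.05. CPM were computed with TMM scaling, and each SE is the absolute log2 fold change divided by the root of F. The code was tested on simulated counts. Ratios with 1 to 3 counts carry exact (Clopper-Pearson) 95% intervals, which like the floor of 3 counts per genotype cover counting error only. Same-numbered libraries of gun1-101 and gun1-101 rab8d-2 deviated together in all 3 pairs (correlations of 0.143, 0.143 and 0.215, over the limit of 0.1), a pairing that comes from the data and not from the labels, so a fit with the replicate number as a block is given beside each call it ends in that comparison. In no other pair of genotypes were all 3 correlations over 0.1. Alternatives were DESeq2 1.42.0, its size factors, limma 3.58.1 on log2(TPM + 1), no filter, the genotypes of a comparison alone, a replicate block, each library left out, both most distant libraries left out and, added after seeing the data, FRO4 and FRO5 summed.

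The 10 genes and the lists were chosen with earlier results of these data known. Named genes are the 10 members and, from the iron and copper lists, those called in at least 1 comparison of a carrier with its counterpart, up to 4 per role and direction, plus FIT, PYE, BTS, FER1 and SPL7. Promoters were read from RefSeq TAIR10.1 by its own annotation, since the deposited table carries no coordinates.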

Additional observations from a re-analysis of the deposited data

How the results depend on the processing

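Of the values for single genes, 1078 kept direction and call under an alternative, 185 kept the direction and lost the call, 15 gained one and 13 reversed. In the gun1-101 background, FRO4, FRO5 and NAS2 were called under all 13 alternatives, as were IRT2, FRO4 and FRO5 in the nac103-11 background. In the WT background, FRO4, FRO5 and bHLH39 were called under 12 of 13, all but the fit of the 2 genotypes alone. That fit called 0 iron genes and 0 list genes in the WT background, 9 iron genes and 32 list genes in the gun1-101 background, and 4 iron genes and 10 list genes in the nac103-11 background, with IRT1 (adjusted p = 0.0777), FRO3 (0.104) and NAS1 (0.157) lost in the last, and the cause was not tested. The genes gained in the gun1-101 background were bHLH39 (adjusted p = 0.0154), FRO3 (0.0207) and NAS1 (0.000531). NAS1 was also called there by DESeq2 (0.0186) and without both most distant libraries (0.0251). In the nac103-11 background bHLH38 was called with DESeq2 (0.0228), with its size factors (0.0499) and without nac103-11 replicate 1 (0.0344) or 3 (0.0470) or nac103-11 rab8d-2 replicate 2 (0.0348). With limma on TPM, calls of the 10 iron genes were lost for bHLH38 in the WT (adjusted p = 0.0872) and gun1-101 backgrounds (0.0743), FRO2 in the gun1-101 background (0.0769) and between gun1-101 rab8d-2 and rab8d-2 (0.0804), and IRT1 (0.170) and FRO3 (0.112) in the nac103-11 background. Other named genes that lost calls with limma were AHA7 (0.0530), IREG3 (0.345) and VTL2 (0.0625) in the WT background. In the gun1-101 background they were SPL7 (0.216), bHLH104 (0.429), AT1G74770 (0.105) and OPT3 (0.0539). In the nac103-11 background they were SPL7 (0.0565), YSL1 (0.141) and FRO8 (0.428). Without both most distant libraries, 19 list genes were called in the WT background, 1 iron gene (NAS2) in gun1-101 against WT and 1 (NAS2) in the difference of the rab8d-2 effect between gun1-101 and WT. DESeq2 called 2 iron genes in gun1-101 rab8d-2 against rab8d-2 (FRO2 and bHLH39). Leaving out 1 library gave 3 to 5 iron genes and 1 to 8 list genes in the WT background, 3 to 6 and 8 to 15 in the gun1-101 background, 3 to 7 and 11 to 17 in the nac103-11 background, 0 to 1 iron genes in gun1-101 rab8d-2 against rab8d-2, and 0 in the other comparisons.

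The 13 reversed log2 fold changes belonged to genes not called in the comparison. FRO2 in the WT background was 0.37 without WT replicate 2 (-0.84 to 0.37 over the libraries left out) and 0.046 with limma on TPM. BTS there was 0.0023 without WT replicate 3 (-0.33 to 0.0023), 0.047 without both most distant libraries and 0.075 with limma. SPL7 there was 0.00942 without WT replicate 3 (-0.40 to 0.00942), 0.052 without both most distant libraries and 0.074 with limma. BTS was -0.010 without gun1-101 replicate 3 (-0.010 to 0.17) in the gun1-101 background and -0.18 without nac103-11 rab8d-2 replicate 2 in the nac103-11 background. IRT1 in the gun1-101 background, fitted to 3 and 2 reads, was -0.17 without gun1-101 replicate 1, -0.50 without gun1-101 rab8d-2 replicate 1 (-0.50 to 0.88 over the libraries left out) and 0 with limma. TPM scaling moved the median of all genes from 0.01 to 0.22 in the WT background and from 0.05 to 0.20 in the gun1-101 background, and the called iron genes kept their directions.

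With a replicate block, 0 iron genes were called in gun1-101 rab8d-2 against rab8d-2, 5 in the WT background, 6 in the gun1-101 background and 5 in the nac103-11 background, where FRO3 (adjusted p = 0.0611) and NAS1 (0.0730) were lost. Where same-numbered libraries deviated together, in the gun1-101 background, the block ended 0 of the 6 iron gene calls, and it left 14 of 17 list calls in number. In the other comparisons same-numbered libraries correlated between -0.61 and 0.52, not all over 0.1, so there they share only a number.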
